A study of Homo sapiens with 8 samples.

Results

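The genes examined here are 39 factors of homologous recombination and of the Fanconi anaemia pathway of DNA repair. They are listed by name, but the list was chosen with earlier results of these data known. On this platform 34 of them had at least 1 transcript cluster (the unit of measurement, a set of probes for one transcript) annotated with exactly 1 gene symbol, among 33458 genes so annotated. For the 5 members with several such clusters, the cluster with the highest mean over the 8 samples was taken. The other 5, BRCA2, FANCA, FANCD2, RBBP8 and ATRIP, are not analysed here, apart from a cluster that ATRIP shares with TREX1.

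Homologous recombination copies the intact sister chromatid to mend a broken chromosome, and the Fanconi anaemia pathway removes crosslinks that tie both DNA strands together and hands the resulting breaks to recombination. A break is first trimmed to single-stranded DNA by nucleases, a recombinase is then loaded with the help of BRCA2 and its partners, and checkpoint kinases hold the cell cycle meanwhile. Many of these genes are transcribed less in G1 than in S and G2, the phases in which a sister chromatid is present.

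All samples are RNA of the established line LN229, grown from a human glioblastoma, so that 1 line stands for the tumour type. By their titles, 4 samples come from cells kept for 18 h under compressive solid stress (CSS) of 23 Pa and 4 from cells without it. Stress was applied by steel discs on an agar cushion over cells on a permeable membrane, and the wells without stress had no cushion either, so the comparison is of discs and cushion together against neither. The source name and description of every sample state the opposite condition of its title. Groups here follow the titles, as "titled 23 Pa CSS" and "titled no CSS". Each difference is the mean log2 signal titled 23 Pa CSS minus that titled no CSS, and all signs turn if the source names are right. The labels do not say that replicates are separate cultures, so the spread that each p-value rests on may be technical. In bulk RNA, fewer cells in a phase of the cycle and less RNA per cell cannot be told apart.

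The arrays had similar medians over 135750 transcript clusters, 4.59 to 4.65 in the samples titled 23 Pa CSS and 4.56 to 4.62 in those titled no CSS. The antigenomic background rows averaged 4.18 titled 23 Pa CSS and 4.03 titled no CSS. Over the 8 samples, 6 markers of the line averaged from 8.42 for EGFR to 17.0 for S100A10, with VIM at 16.77, on a scale that ends at 19.93. Their summed signal was 18.83 to 19.10 titled 23 Pa CSS and 18.21 to 18.32 titled no CSS. S100A10 rose, by 1.17 (limma adjusted p = 0.011). Of 4 endothelial markers the summed signal was 5.87 to 6.37 titled 23 Pa CSS and 5.91 to 6.11 titled no CSS. Of 4 leukocyte markers it was 12.20 to 13.25 titled 23 Pa CSS and 11.17 to 11.44 titled no CSS, most of it CD68, which rose: it was 12.73 ± 0.447 titled 23 Pa CSS and 11.24 ± 0.131 titled no CSS (SD, n = 4), a difference of 1.49 (adjusted p = 0.0132). PTPRC was 5.59 ± 0.234 titled 23 Pa CSS and 4.83 ± 0.112 titled no CSS (SD, n = 4) without overlap and did not pass (adjusted p = 0.0505), and CD3E, at 4.60 ± 0.446 titled 23 Pa CSS and 4.75 ± 0.143 titled no CSS (SD, n = 4), and CD14 lay near the background. Of 4 epithelial markers it was 12.12 to 12.73 titled 23 Pa CSS and 11.11 to 12.03 titled no CSS, most of it KRT18, while EPCAM and CDH1 lay near the background. Of 3 neuron markers it was 9.03 to 10.25 titled 23 Pa CSS and 10.50 to 10.81 titled no CSS, and of 3 oligodendrocyte markers 6.86 to 7.22 titled 23 Pa CSS and 6.67 to 7.51 titled no CSS. The part of other cell types in the results was not tested.

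Of the 34 members, 6 fell in the samples titled 23 Pa CSS, 0 rose and 28 did not pass, where a gene fell or rose if limma's p, adjusted over all transcript clusters, was under 0.05. The 6 were RIF1, BRIP1, MRE11, ATM, POLQ and XRCC2, or 17.6% of the members, and 0.962% of all 33458 genes fell. Of all genes 1.36% rose. A mean signal below that of the background rows was found in 8113 of the 33458 genes and in 0 members. These shares therefore compare genes of unlike signal. The differences of the members spanned −1.94 for RIF1 to 0.45 for XRCC3, with a median of −0.36, and the median of all genes was 0.09. Of the members 26 had a negative difference (76.5%), as had 37.5% of all genes. In 12 members all 4 samples titled 23 Pa CSS lay below all 4 titled no CSS (35.3%), which held for 4.58% of all genes. In the other repair lists described below it held for 4.55% (base excision) to 40% (end joining) of the genes. It held for 37.5% of the proliferation markers, so it was not particular to the members. The opposite separation held for 0 members and for 9.11% of all genes. An unadjusted p under 0.05 was found in 15 members, all lower, beside 2241 lower genes of 6462 in all. The balance of all genes moves with scaling: 322 fell and 455 rose on the deposited values, 235 fell and 662 rose after quantile normalization, and 507 fell and 392 rose with arrays centred on the background rows. The members gave 6 lower on the deposited values, 5 after quantile normalization and 7 centred on background, with 0 higher each time. The count moved with each sample left out: 3, 5, 9 and 1 members fell when titled 23 Pa CSS replicates 1, 2, 3 and 4 were dropped in turn, and 2, 1, 2 and 1 when titled no CSS replicates 1, 2, 3 and 4 were. MRE11 alone passed in each of these 8 fits.

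**Figure D1:**
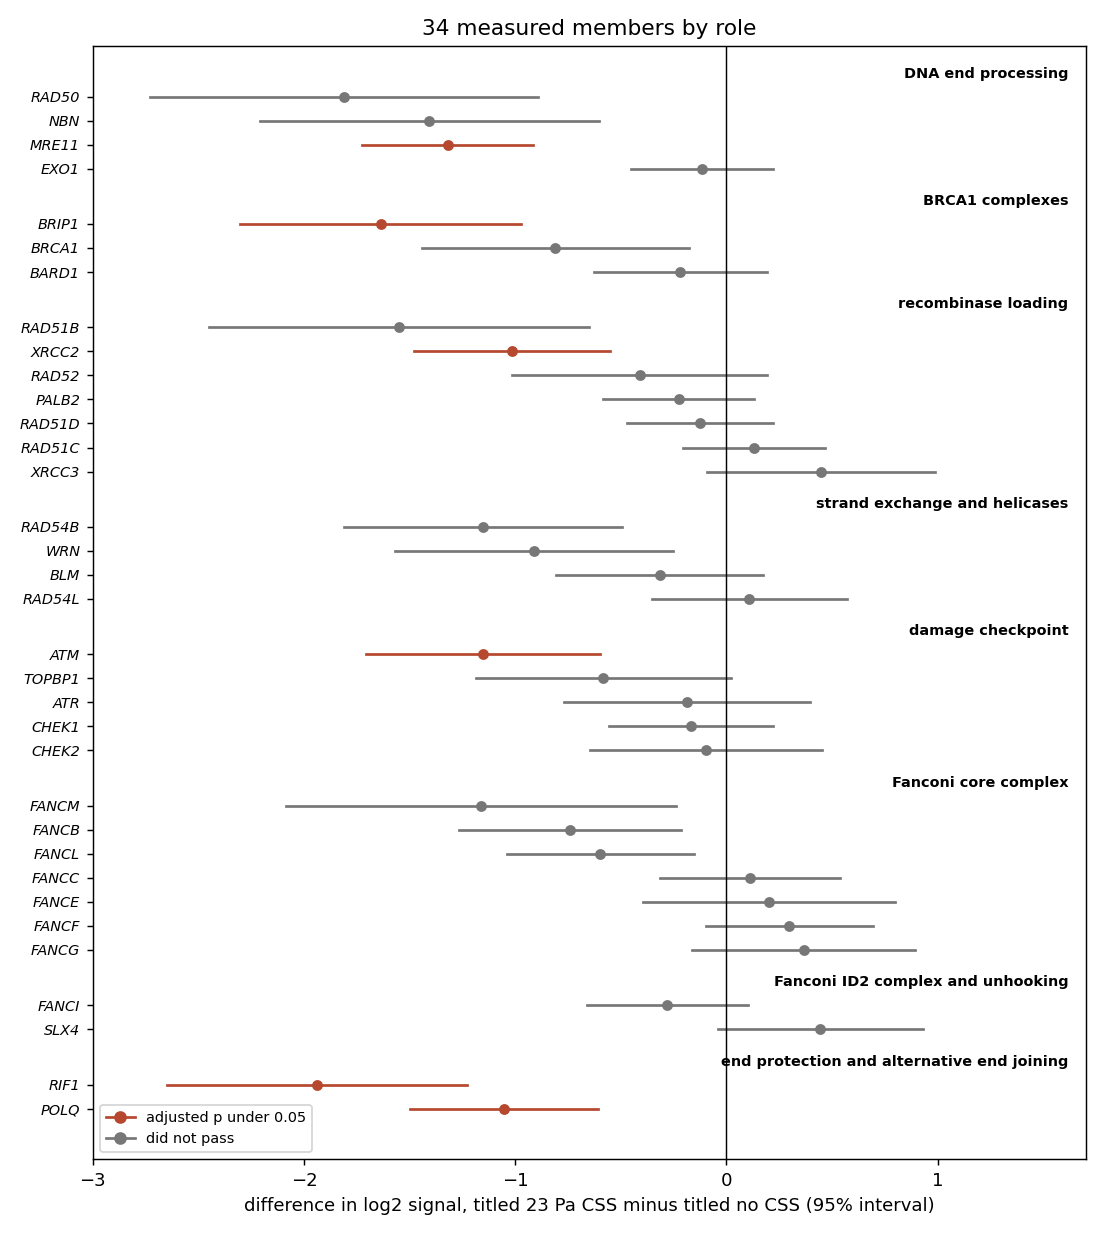
Difference in log2 signal (titled 23 Pa CSS minus titled no CSS, x axis) of the 34 measured members, grouped by role; points are differences of 4 and 4 samples and bars their 95% intervals from limma. The 6 coloured members passed, and they lie between −1.94 for RIF1 and −1.02 for XRCC2, whereas the highest point is XRCC3 at 0.45.

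The promoters of the members that fell are shown because 4 of the 6 hold the letters of the cell cycle genes homology region (CHR), an element through which a repressor complex holds down many G2 and M phase genes in resting cells. The letters searched were TTTGAA and TTCGAA for CHR, CCAAT for the CCAAT box, and TTTCCCGC, TTTCGCGC, TTTGCCGC and TTTGGCGC for E2F, each on both strands. XRCC3, the member with the highest difference, is shown beside them. Sequences are RefSeq windows on build GRCh38.p14, 250 bases before to 50 after a gene's start, 5′ to 3′ on the strand of the gene, and the first listed window was taken where a gene has several. Capitals mark matches on either strand to the CHR, CCAAT and E2F letters, and none of these overlap another. RIF1 lies at chr2:151409652-151409951 (plus strand), BRIP1 at chr17:61863479-61863778 (minus strand), ATM at chr11:108222817-108223116 (plus strand), POLQ at chr3:121545939-121546238 (minus strand), MRE11 at chr11:94493795-94494094 (minus strand), XRCC2 at chr7:152676092-152676391 (minus strand) and XRCC3 at chr14:103715402-103715701 (minus strand).
RIF1: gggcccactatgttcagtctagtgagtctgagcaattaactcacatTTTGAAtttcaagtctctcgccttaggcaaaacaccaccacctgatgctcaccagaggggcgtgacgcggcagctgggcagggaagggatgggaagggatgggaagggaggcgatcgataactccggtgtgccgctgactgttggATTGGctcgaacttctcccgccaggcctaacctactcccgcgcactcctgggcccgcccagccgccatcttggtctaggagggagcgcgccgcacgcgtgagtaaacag
BRIP1: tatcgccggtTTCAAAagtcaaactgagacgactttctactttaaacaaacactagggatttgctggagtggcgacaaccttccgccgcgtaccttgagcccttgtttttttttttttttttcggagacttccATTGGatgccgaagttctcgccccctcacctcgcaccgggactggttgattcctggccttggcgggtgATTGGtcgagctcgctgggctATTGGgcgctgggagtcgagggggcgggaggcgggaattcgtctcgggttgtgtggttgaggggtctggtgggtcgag
ATM: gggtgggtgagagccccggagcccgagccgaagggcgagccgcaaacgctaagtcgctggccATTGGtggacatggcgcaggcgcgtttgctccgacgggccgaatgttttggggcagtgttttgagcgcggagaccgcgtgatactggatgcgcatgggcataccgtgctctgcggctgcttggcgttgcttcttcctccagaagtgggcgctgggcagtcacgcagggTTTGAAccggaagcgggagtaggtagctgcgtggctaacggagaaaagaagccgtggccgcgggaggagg
POLQ: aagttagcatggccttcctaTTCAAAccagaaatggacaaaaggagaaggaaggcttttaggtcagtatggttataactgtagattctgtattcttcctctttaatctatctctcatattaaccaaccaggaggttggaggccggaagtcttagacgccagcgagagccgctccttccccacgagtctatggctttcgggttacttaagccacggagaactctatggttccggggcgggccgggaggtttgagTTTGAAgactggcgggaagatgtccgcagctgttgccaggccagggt
MRE11: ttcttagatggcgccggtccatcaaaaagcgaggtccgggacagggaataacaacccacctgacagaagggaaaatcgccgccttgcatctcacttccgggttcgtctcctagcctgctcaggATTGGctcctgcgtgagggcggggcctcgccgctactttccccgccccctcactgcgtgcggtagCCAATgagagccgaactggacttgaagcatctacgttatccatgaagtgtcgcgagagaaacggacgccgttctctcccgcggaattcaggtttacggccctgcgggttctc
XRCC2: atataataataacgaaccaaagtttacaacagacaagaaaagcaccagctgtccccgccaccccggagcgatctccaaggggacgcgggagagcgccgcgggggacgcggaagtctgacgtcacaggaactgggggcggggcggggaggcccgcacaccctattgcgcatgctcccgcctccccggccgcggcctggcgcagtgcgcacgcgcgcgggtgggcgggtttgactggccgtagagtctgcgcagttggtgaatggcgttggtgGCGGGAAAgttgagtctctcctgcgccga
XRCC3: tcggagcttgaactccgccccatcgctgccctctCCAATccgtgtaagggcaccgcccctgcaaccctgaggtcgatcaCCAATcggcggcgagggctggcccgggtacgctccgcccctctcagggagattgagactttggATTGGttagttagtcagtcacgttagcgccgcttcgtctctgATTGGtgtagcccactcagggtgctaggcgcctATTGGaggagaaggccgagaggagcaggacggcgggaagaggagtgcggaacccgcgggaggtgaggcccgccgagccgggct

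CHR letters begin at −204 from the start in RIF1, at −240 in BRIP1, at −20 in ATM and at −230 and 4 in POLQ. They are absent from the windows of MRE11 and XRCC2. Among the 24 members that did not pass and have a window, 1 holds CHR letters, FANCC, with a difference of 0.11. The 4 measured members without a window, FANCI, NBN, RAD54B and WRN, did not pass either. They differed by −0.28, −1.41, −1.15 and −0.91 and are missing from these counts. Of all 16564 measured genes with a window 14.2% hold them, and of the 201 of these genes that fell 29.9% do. Where any listed window of a gene counted, the numbers were 4 of 6 members that fell, 1 of 24 that did not pass, 34.8% of all genes that fell and 17.9% of all genes. E2F letters are in 4 of the 30 member windows (13.3%), against 4.08% of all windows: XRCC2, TOPBP1, EXO1 and FANCC. Of these XRCC2 fell, and the others differed by −0.58, −0.12 and 0.11. CCAAT is in 40.0% of the member windows and 36.2% of all. The core letters of the hypoxia response element, ACGTG or GCGTG on either strand, are in 63.3% of the member windows and 54.6% of all. A match is a description of letters and not of a bound site. The motifs were looked at with the differences already known, so these counts carry no test.

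DNA end processing held some of the largest differences. MRE11 is the nuclease, RAD50 the ATPase that bridges ends and NBN the regulatory subunit of one complex that senses breaks and starts trimming. MRE11 (transcript cluster TC1100012002.hg.1) had a log2 signal of 8.45, 8.46, 8.86 and 8.26 in the samples titled 23 Pa CSS, and of 9.79, 9.66, 10.11 and 9.76 in those titled no CSS. All 4 samples titled 23 Pa CSS lay clearly below every sample titled no CSS, and the spread was alike in both groups. The means were 8.51 ± 0.253 titled 23 Pa CSS and 9.83 ± 0.195 titled no CSS (SD, n = 4), a difference of −1.32 ± 0.184 (SE, limma adjusted p = 0.011). RAD50 had 10.25, 12.33, 12.34 and 10.83 titled 23 Pa CSS and 13.04, 13.49, 13.23 and 13.23 titled no CSS. Its groups did not overlap either, but the samples titled 23 Pa CSS fell into a lower pair, replicates 1 and 4, and a higher pair. The means were 11.44 ± 1.06 titled 23 Pa CSS and 13.25 ± 0.186 titled no CSS (SD, n = 4), and with a difference of −1.81 ± 0.419 (SE) it did not pass (adjusted p = 0.0533). NBN had 8.74, 10.65, 9.64 and 9.18 titled 23 Pa CSS and 11.35, 11.06, 11.06 and 10.36 titled no CSS, so that replicate 2 of the first overlapped the second. Its difference was −1.41 (adjusted p = 0.076), and a second, dimmer cluster of NBN differed by −0.85 (adjusted p = 0.121). RAD50 passed under 9 of 17 alternatives, for example with arrays centred on their medians (adjusted p = 0.0498), and NBN with the mean of its clusters (adjusted p = 0.0361) and without titled 23 Pa CSS replicate 2 (adjusted p = 0.0293). EXO1, the exonuclease that extends the trimming, was 13.70 ± 0.127 titled 23 Pa CSS and 13.82 ± 0.0703 titled no CSS (SD, n = 4), and its difference of −0.12 had a 95% interval from −0.45 to 0.22.

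In the complexes of BRCA1, the ubiquitin ligase that favours recombination over end joining, the helicase gene fell. BRIP1 (TC1700011364.hg.1), a helicase that binds BRCA1 and also belongs to the Fanconi pathway, had 7.19, 8.17, 8.89 and 7.79 titled 23 Pa CSS and 9.61, 9.76, 9.41 and 9.81 titled no CSS. The groups did not overlap, and the SD was 0.71 titled 23 Pa CSS and 0.182 titled no CSS. Its difference was −1.64 ± 0.303 (SE, adjusted p = 0.0252), or 32.2% of the level titled no CSS on the linear scale. BRIP1 lost its call without titled 23 Pa CSS replicate 2 or 4 or any 1 of the samples titled no CSS, with adjusted p of 0.0514 to 0.0839. BRCA1 itself had 8.73, 9.96, 9.97 and 9.03 titled 23 Pa CSS and 10.59, 10.08, 10.07 and 10.19 titled no CSS. Its replicates 2 and 3 titled 23 Pa CSS lay just below the lowest sample titled no CSS and replicates 1 and 4 far below, and the difference of −0.81 ± 0.288 did not pass (SE, adjusted p = 0.186). BARD1, the obligate partner of BRCA1, was 8.16 ± 0.269 titled 23 Pa CSS and 8.38 ± 0.183 titled no CSS (SD, n = 4) and differed by −0.22 (95% interval −0.63 to 0.19).

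**Figure D2:**
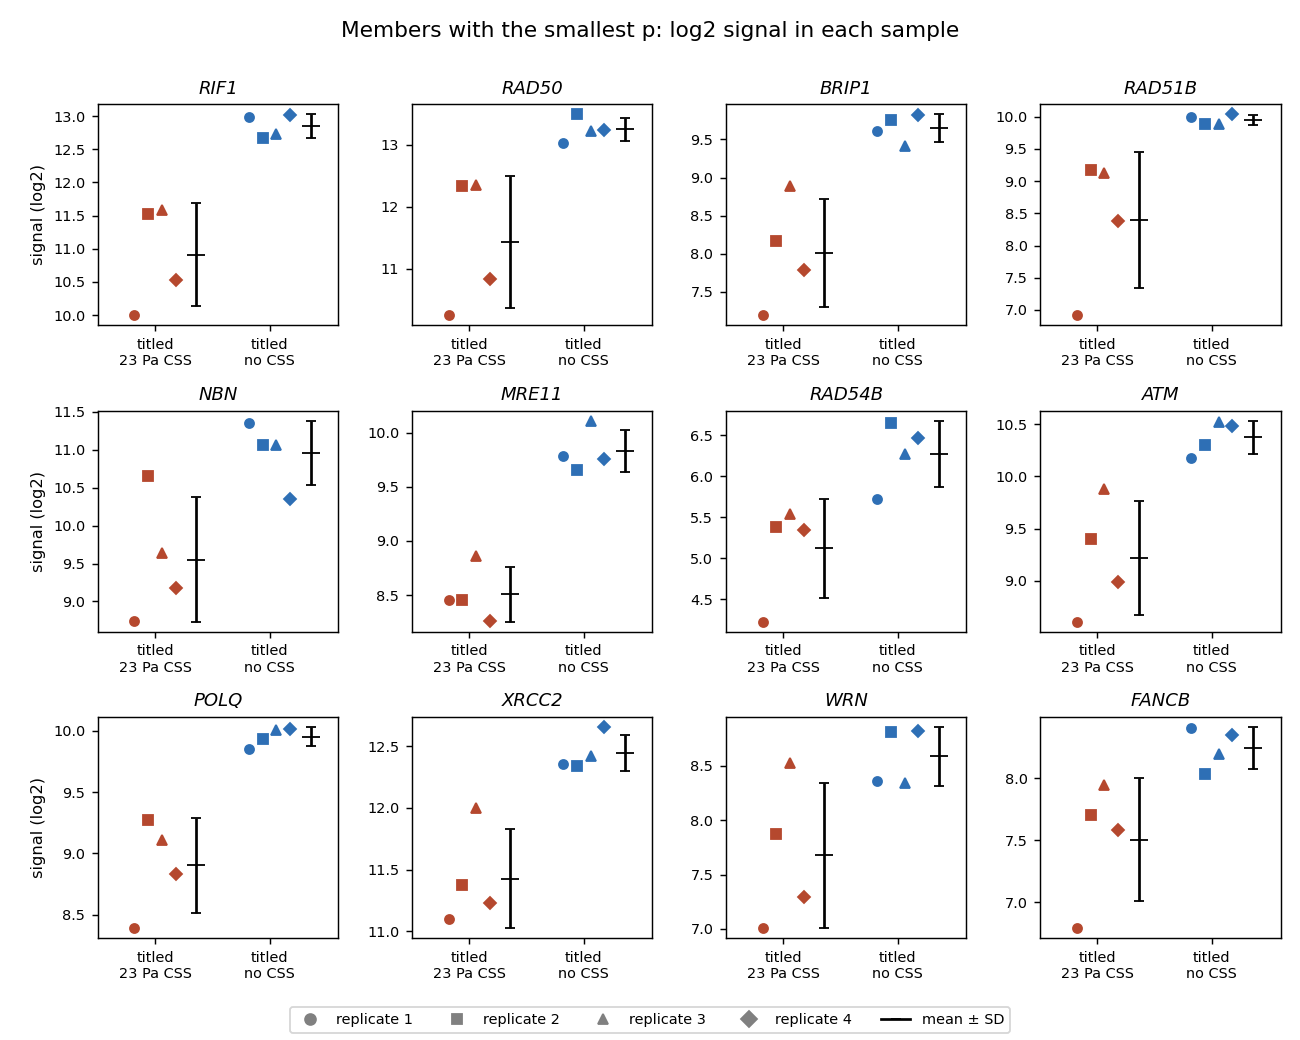
Log2 signal (y axis, its own range in each panel) in each sample of the 12 members with the smallest p, samples titled 23 Pa CSS left and titled no CSS right; marker shapes are replicate numbers and bars mean ± SD of 4 samples. In RIF1, RAD50 and RAD51B replicates 1 and 4 titled 23 Pa CSS lie lowest, whereas all 4 samples of MRE11 lie together between 8.26 and 8.86.

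Among the genes that load the recombinase, 1 of 7 measured genes fell, XRCC2. RAD51B, RAD51C, RAD51D and XRCC2 are paralogues of the recombinase that form one complex. XRCC2 (TC0700013119.hg.1) had 11.10, 11.37, 12.00 and 11.23 titled 23 Pa CSS and 12.35, 12.34, 12.42 and 12.65 titled no CSS, with no overlap and a difference of −1.02 ± 0.211 (SE, adjusted p = 0.0365). Its call was lost with a replicate block (adjusted p = 0.072) and without any 1 sample except titled 23 Pa CSS replicate 3. RAD51B had 6.92, 9.16, 9.13 and 8.39 titled 23 Pa CSS and 9.99, 9.89, 9.88 and 10.03 titled no CSS. The samples titled 23 Pa CSS were spread widely (SD 1.05) and those titled no CSS narrowly (SD 0.0739), and the difference of −1.55 did not pass (adjusted p = 0.0803). It is set by 1 cluster of the gene: the other, dimmer cluster was 6.50 ± 0.38 titled 23 Pa CSS and 6.30 ± 0.263 titled no CSS (SD, n = 4), a difference of 0.19. RAD51C was 12.36 ± 0.12 titled 23 Pa CSS and 12.23 ± 0.0929 titled no CSS (SD, n = 4) and differed by 0.13 (95% interval −0.21 to 0.47), and RAD51D differed by −0.13 (95% interval −0.47 to 0.22). Differences between subunits were not tested. XRCC3, which pairs with RAD51C in a second complex, had the highest difference of all members, 0.45 (adjusted p = 0.418), and replicate 3 titled 23 Pa CSS lay below all its samples titled no CSS. PALB2, which joins BRCA1 to BRCA2, and RAD52, which anneals single strands, differed by −0.23 and −0.41 (adjusted p = 0.559 and 0.524).

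The genes for strand exchange and unwinding did not pass. RAD54B, a motor protein of strand exchange, had 4.22, 5.38, 5.54 and 5.34 titled 23 Pa CSS and 5.72, 6.64, 6.27 and 6.46 titled no CSS, without overlap and close to the middle of all genes in signal, and differed by −1.15 (adjusted p = 0.0762). Its value in replicate 1 titled 23 Pa CSS was near the background rows of that array, which averaged 4.17. A cluster shared by RAD54B and FSBP differed by −0.98 (adjusted p = 0.0743). Its paralogue RAD54L differed by 0.11 (95% interval −0.35 to 0.57). WRN, the helicase mutated in Werner syndrome, had 7.01, 7.88, 8.52 and 7.29 titled 23 Pa CSS and 8.36, 8.81, 8.35 and 8.82 titled no CSS. Its replicate 3 titled 23 Pa CSS overlapped the other group, and the difference of −0.91 did not pass (adjusted p = 0.152), though it did without that sample (adjusted p = 0.0256). A second, dim cluster of WRN differed by −0.27 (adjusted p = 0.83). BLM, the helicase mutated in Bloom syndrome, differed by −0.32 (adjusted p = 0.552).

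Of the checkpoint genes 1 of 5 measured fell. ATM (TC1100008985.hg.1), the kinase activated at double-strand breaks, had 8.61, 9.40, 9.88 and 8.99 titled 23 Pa CSS and 10.18, 10.30, 10.52 and 10.48 titled no CSS. The groups did not overlap, and the difference was −1.15 ± 0.252 (SE, adjusted p = 0.044). ATM was the weakest call of the 6: it was lost after quantile normalization (adjusted p = 0.0602), with a replicate block (adjusted p = 0.0548) and without any 1 sample except titled 23 Pa CSS replicate 3. ATR, the kinase that answers single-stranded DNA at stalled forks, was 6.88 ± 0.421 titled 23 Pa CSS and 7.07 ± 0.446 titled no CSS (SD, n = 4), a difference of −0.19 (95% interval −0.77 to 0.39). TOPBP1, its activator, had 12.33, 13.39, 13.75 and 12.74 titled 23 Pa CSS and 13.71, 13.54, 13.66 and 13.64 titled no CSS. Its replicate 3 titled 23 Pa CSS lay above all samples titled no CSS and replicates 1 and 4 well below them, and it did not pass (adjusted p = 0.332). The effector kinases CHEK1 and CHEK2 differed by −0.17 (95% interval −0.56 to 0.22) and −0.10 (95% interval −0.65 to 0.45). The cluster shared by ATRIP, the partner of ATR, and TREX1 was 6.63 ± 0.0445 titled 23 Pa CSS and 6.64 ± 0.167 titled no CSS (SD, n = 4).

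In the Fanconi core complex, which attaches ubiquitin to the FANCD2 and FANCI pair, 0 of 7 measured genes passed by limma and 3 had an unadjusted p under 0.05, all lower. FANCM, the translocase that recruits the complex to DNA, had 4.32, 6.46, 6.31 and 6.58 titled 23 Pa CSS and 7.08, 7.34, 7.01 and 6.87 titled no CSS. The groups did not overlap, but replicate 1 titled 23 Pa CSS lay far below the 3 other samples of its group. Its value was near the background rows of that array, which averaged 4.17. The difference was −1.16 (adjusted p = 0.196), and −0.63 without that sample. FANCB had 6.79, 7.71, 7.95 and 7.58 titled 23 Pa CSS and 8.41, 8.04, 8.19 and 8.35 titled no CSS, again without overlap and with replicate 1 titled 23 Pa CSS lowest. It differed by −0.74 (adjusted p = 0.146), and FANCL, the ubiquitin ligase subunit in the same module, by −0.60 (adjusted p = 0.165). FANCC, FANCE, FANCF and FANCG, subunits of the other modules, had positive differences of 0.11, 0.20, 0.30 and 0.36, with adjusted p of 0.47 or more. FANCE, at 4.47 over all samples, lay near the background. FANCI was 11.18 ± 0.183 titled 23 Pa CSS and 11.46 ± 0.194 titled no CSS (SD, n = 4) and differed by −0.28 (adjusted p = 0.484). SLX4, the scaffold of the nucleases that cut crosslinks out, had 9.90, 9.55, 9.56 and 10.13 titled 23 Pa CSS and 9.49, 9.41, 9.66 and 8.82 titled no CSS, a difference of 0.44 that did not pass (adjusted p = 0.359). The positive signs of XRCC3, SLX4, FANCE, FANCF, FANCG and RAD51C held under every alternative that gave them a value.

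Both genes of end protection and alternative end joining fell. RIF1 (TC0200016543.hg.1), which shields broken ends from trimming and sets the time of replication origins, had 9.99, 11.53, 11.59 and 10.53 titled 23 Pa CSS and 12.98, 12.67, 12.73 and 13.02 titled no CSS. Every sample titled 23 Pa CSS lay well below every sample titled no CSS, and within the first group replicates 1 and 4 lay below replicates 2 and 3. The difference of −1.94 ± 0.324 was the largest fall among the members (SE, adjusted p = 0.0182) and corresponds to 26.1% of the level titled no CSS on the linear scale. Its other clusters differed by −1.40 and −0.88 (adjusted p = 0.0513 and 0.0624). RIF1 lost its call without titled 23 Pa CSS replicate 4 (adjusted p = 0.0598), titled no CSS replicate 2 (0.0562) or titled no CSS replicate 4 (0.0657). POLQ (TC0300012164.hg.1), the polymerase of alternative end joining, had 8.39, 9.27, 9.11 and 8.83 titled 23 Pa CSS and 9.85, 9.93, 10.01 and 10.02 titled no CSS. The groups lay well apart, with an SD of 0.387 titled 23 Pa CSS and 0.0777 titled no CSS, and the difference was −1.05 ± 0.203 (SE, adjusted p = 0.0285). Its call was lost with a replicate block (adjusted p = 0.0561) and without 6 of the 8 samples in turn, all but titled 23 Pa CSS replicates 2 and 3.

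The members did not share 1 order of the samples titled 23 Pa CSS. The SD was larger titled 23 Pa CSS than titled no CSS in 25 of 34 members (73.5%) and in 55.5% of all genes, with medians over the members of 0.434 titled 23 Pa CSS and 0.194 titled no CSS. It was larger also in 59.5% of the further recombination and Fanconi list and in 78.9% of the 76 genes of other repair pathways, among them 100% of end joining and 90.9% of translesion synthesis. Replicate 1 titled 23 Pa CSS was the lowest of the 4 in 20 members (58.8%) and in 20.4% of all genes, while replicate 3 was lowest in 8 members and replicates 2 and 4 in 3 each. Replicate 1 was the highest of the 4 in 6 members, FANCI, CHEK2, RAD54L, FANCC, RAD51C and FANCG. Replicates 1 and 4 were the lower pair in 19 members and in 15.1% of all genes. In the 6 members that fell they were the lower pair each time, and in 54.7% of all genes that fell. In MRE11, though, replicate 1 titled 23 Pa CSS, at 8.453, was hardly below replicate 2, at 8.458. The median deviation of the members from the mean titled no CSS was −0.85, −0.35, −0.29 and −0.36 in replicates 1 to 4 titled 23 Pa CSS, while the median of all genes was 0.14, 0.05, 0.04 and 0.10. For the 6 that fell it was −1.66, −1.19, −0.80 and −1.47. The limma fit assumes 1 spread for both groups. With array weights that give each group its own variance, the 6 members and RAD50 passed. These weights, fitted over all transcript clusters, were 0.911 titled 23 Pa CSS and 1.10 titled no CSS. They are too alike to take up the members' unequal spread, so this fit cannot show how the calls stand under it.

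**Figure D3:**
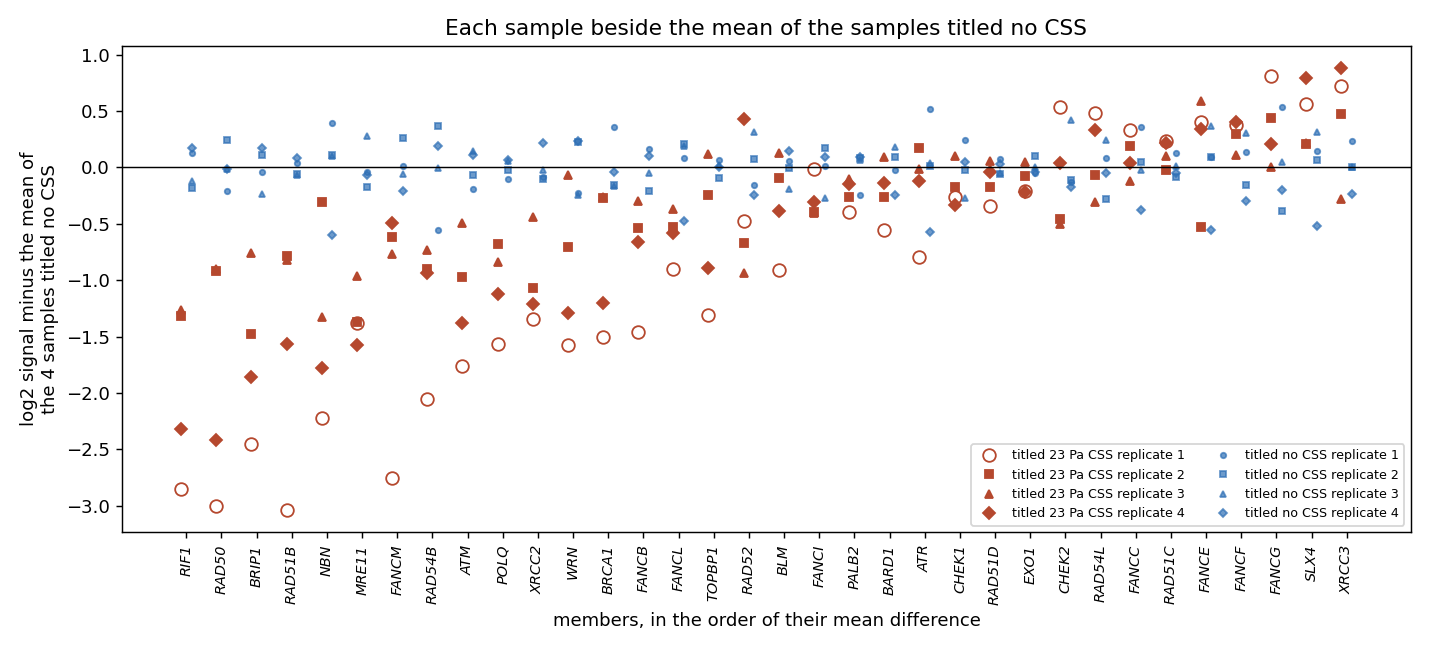
Distance of each sample's log2 signal from the mean titled no CSS (y axis) for the 34 members in the order of their difference; large red marks are samples titled 23 Pa CSS (open circles: replicate 1) and small blue marks samples titled no CSS. Among the red marks the open circle is lowest in 20 members, far below the others in RAD51B and FANCM, and it lies above 0 in all members from CHEK2 to XRCC3.

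Differences were lower, at the median, among members whose promoters were poorer in G and C. The 30 member windows held 32.3% to 76.0% G and C, with a median of 63.7%, beside 62.0% for all genes. FANCI, NBN, RAD54B and WRN have no window and are in none of the classes below. With all genes cut into 3 classes of near equal size by this share, the 6 members in the poorest class (up to 56.3%) had a median difference of −1.11 and 2 of them fell. The 16 in the middle class had −0.36 and 4 fell, and the 8 in the richest (from 67.3%) had −0.01 and 0 fell. Across these 30 genes Spearman's rho between promoter composition and difference was 0.44 and Pearson's r 0.459. Over all 16564 genes the values were 0.105 and 0.0899, and the medians of the classes, poorest first, were 0.08, 0.09 and 0.14. The genes share the 8 arrays and are not independent replicates, and the base composition of the probes was not examined.

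**Figure D4:**
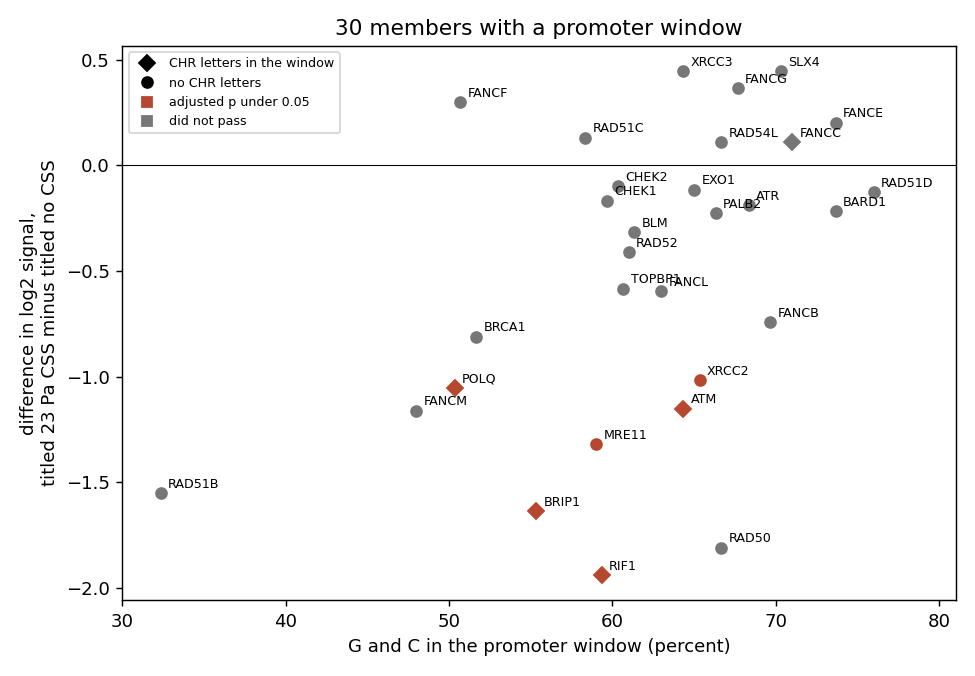
Difference in log2 signal (y axis) against the share of G and C in the promoter window (x axis, percent) for 30 members; coloured marks passed and diamonds hold CHR letters. The 4 coloured diamonds are RIF1, BRIP1, ATM and POLQ, and of the marks above 0 the leftmost is FANCF at 50.7%.

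Few genes of the further repair lists passed, as was so of all genes, of which 0.962% fell and 1.36% rose. Of 42 measured genes in a further list of recombination and Fanconi factors, 2 fell (4.76%), 0 rose and 40 did not pass. In this list 19 had a negative difference and the median was 0.02. PARPBP, which restrains recombination, was 10.13 ± 0.363 titled 23 Pa CSS and 11.15 ± 0.141 titled no CSS (SD, n = 4) (difference −1.01, adjusted p = 0.0312), and RAD51AP1, which stimulates strand invasion, was 9.19 ± 0.181 titled 23 Pa CSS and 10.01 ± 0.251 titled no CSS (SD, n = 4) (difference −0.82, adjusted p = 0.0466). Both fell without overlap of the groups, and both lost their calls with a replicate block and without any 1 sample except titled 23 Pa CSS replicate 3. RAD51AP1 lost its call also after quantile normalization (limma adjusted p = 0.0813). Of the 76 measured genes of other repair pathways and damage signalling, 1 fell (1.32%) and 1 rose, and the median was 0.05. POLK, a translesion polymerase, fell (difference −1.83, adjusted p = 0.0399), in a list of 11 with a median of −0.57. Its call was lost with a replicate block (adjusted p = 0.0633) and without 6 of the 8 samples in turn, all but titled 23 Pa CSS replicates 2 and 3 (adjusted p up to 0.12). RAD9A, of the checkpoint clamp, rose (difference 0.77, adjusted p = 0.0439), in a list of 17 break signalling genes with a median of 0.08. Its call was lost under 11 of 17 alternatives, with adjusted p up to 0.205: centred on background, with a replicate block, with trend and robust, with the mean of its clusters and without any 1 sample except titled 23 Pa CSS replicate 3. Of 10 end joining genes 0 passed by limma and 5 had an unadjusted p under 0.05, 4 of them lower. LIG4 was at −1.25 and XRCC4 at −0.91 (adjusted p = 0.0831 and 0.0849), while NHEJ1 was higher, at 0.50. The median of mismatch repair was 0.04 over 5 genes, with PMS1 at −0.81 and MSH6 at 0.62. It was 0.26 over 11 nucleotide excision genes, with ERCC5 at −0.61 and XPC at 0.44, and 0.19 over 22 genes of base excision, with POLB at 0.97 and APEX2 at 0.47. None of these 3 lists held a gene past limma's threshold, and 2, 3 and 5 of their genes had an unadjusted p under 0.05. Differences between lists were not tested.

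**Figure D5:**
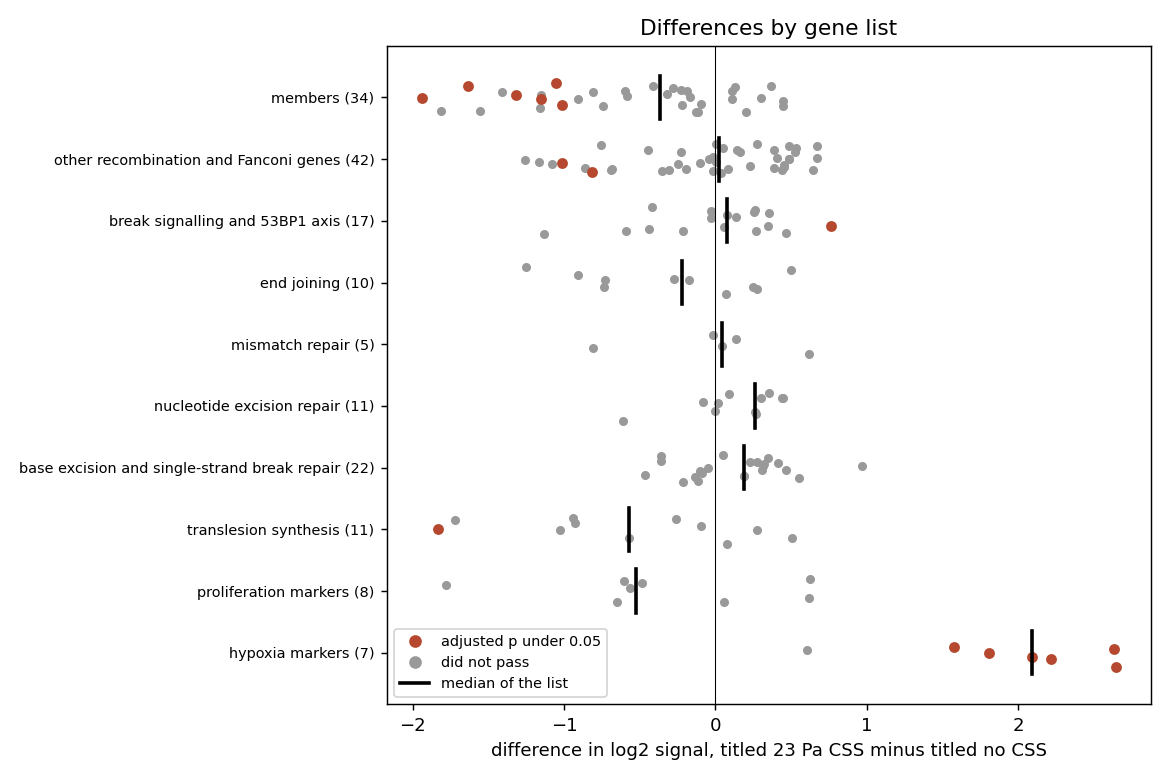
Difference in log2 signal (x axis) of each gene in the members and in 9 other lists, with the number measured in brackets; vertical bars are list medians and coloured points passed. The bar of the members lies at −0.36 and those of translesion synthesis and the proliferation markers at −0.57 and −0.52, left of the other repair lists.

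Genes known to rise in low oxygen rose in the samples titled 23 Pa CSS, whereas no marker of proliferation passed. Of 8 proliferation markers 0 passed by limma and 6 had an unadjusted p under 0.05: TOP2A was 12.99 ± 1.15 titled 23 Pa CSS and 14.77 ± 0.0739 titled no CSS (SD, n = 4) and CDK1 12.64 ± 0.246 titled 23 Pa CSS and 13.28 ± 0.0972 titled no CSS (SD, n = 4), differences of −1.78 and −0.65 (adjusted p = 0.0677 and 0.082). MCM2 and MCM6, of the replicative helicase and named after their values were seen, differed the other way, by 0.62 and 0.63 (adjusted p = 0.124 and 0.113). The median signal of the 8 was 12.62 to 12.87 titled 23 Pa CSS and 13.25 to 13.47 titled no CSS. Of 7 measured hypoxia markers 6 rose, with a median difference of 2.09, and the median signal was 10.50 to 11.30 titled 23 Pa CSS and 9.23 to 9.48 titled no CSS. In every sample this median signal was the value of VEGFA, the marker of middle signal. NDRG1 and ADM rose by 2.65 and 2.64, SLC2A1 by 2.22 and BNIP3 by 2.09. Replicate 1 titled 23 Pa CSS, lowest in most members, had the lowest median signal of the proliferation markers in its group. The hypoxia median was highest there too, but it is VEGFA alone and does not describe the list. Single markers did not share 1 order. Within that group VEGFA and ANKRD37 were highest in replicate 1, ADM, BNIP3 and PDK1 in replicate 3, SLC2A1 in replicate 2 and NDRG1 in replicate 4. Of the proliferation markers, TOP2A, MKI67, CDK1 and CCNE2 were lowest in replicate 1, while MCM6 and PCNA were highest there. The part of either in the members' values was not tested.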

How the data were processed

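Total RNA of 8 LN229 samples was measured on arrays that the labels call Affymetrix Human Transcriptome Array 2.0, and the authors deposited log2 signal per transcript cluster. Transcriptome Analysis Console is named per the submitters' processing notes; its version, settings and genome build are not given in the sources used here. The table has 138745 rows, of which 2995 control rows were left out, and 0 columns of other samples. This row count and the form of the cluster names are as a Clariom D array would give, so which array was used is uncertain. The number of arrays limits the precision. From the deposited log2 values, limma 3.58.1 in R 4.3.3 (lmFit, eBayes) compared the 4 samples titled 23 Pa CSS with the 4 titled no CSS over 135750 transcript clusters, with Benjamini-Hochberg adjustment over all of them and a threshold of 0.05. The fit was tested on simulated data. A gene was its brightest cluster with 1 symbol. Members and lists were chosen with earlier results of these data known. Sample values are given for members past the threshold, the 12 with the smallest p and the best known of each role. From each other list up to 4 genes past the threshold, or else the 2 with the smallest p, are named. Promoter windows came from RefSeq (30 of 34 members matched), and gene names from its table. Protein lengths were not used here. Alternatives were 9 other settings and the omission of each of the 8 samples. Figures were drawn with matplotlib 3.10.9.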

Additional observations from a re-analysis of the deposited data

Results flagged for a closer look

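In 6 of 104 groups of 4 samples, one sample lay far from the other 3, with a gap to the nearest of them above Dixon's 95% critical value; chance gives this in about 1 in 20 groups. Among the samples titled 23 Pa CSS, replicate 1 had a log2 signal of 4.22 for RAD54B, where the others had 5.34 to 5.54. The same sample had 4.32 for FANCM, where the others had 6.31 to 6.58. These RAD54B and FANCM values lay near the background rows of that array, which averaged 4.17. For the hypoxia marker ADM, replicate 3 titled 23 Pa CSS had 9.58 and the others 9.35 to 9.38. Among the samples titled no CSS, PALB2 was 11.04 in replicate 1 and 11.35 to 11.37 in the others, and CHEK2 was 9.30 in replicate 3 and 8.71 to 8.76 in the others. POLK was 14.56 in replicate 4 titled no CSS and 14.00 to 14.08 in the others. Of these genes POLK and ADM passed the threshold.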

How the results depend on the processing

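Under the 17 alternatives no called member changed sign, and the members called higher stayed at 0 in each. Of 577 member differences under the alternatives, 523 kept their direction and side of the threshold, 33 lost a call, 14 gained one and 7, of genes that did not pass, changed sign. CHEK2 was 0.0563 after quantile normalization. With single samples left out, the difference ranged from −0.307 to 0.0427 for CHEK2, from −0.0158 to 0.2475 for RAD54L, from −0.379 to 0.0128 for ATR and from −0.0161 to 0.2295 for FANCC. Members called lower numbered 5 after quantile normalization and 7 with arrays centred on their medians or on the background rows; leaving out 1 sample each gave 1 to 9, and moved their median difference between −0.435 and −0.352. In the further recombination and Fanconi list, 2 fell; it was 1 after quantile normalization, 0 with a replicate block, 4 among clusters above the median signal, and 0 to 3 without single samples. In the other repair pathways 1 fell; it was 2 centred on background, 0 with a replicate block, 2 with eBayes trend and robust, 3 above the median signal, 2 adjusted over clusters with 1 symbol, and 0 to 6 without single samples. There 1 rose; it was 3 after quantile normalization, 0 centred on background, 0 with a replicate block, 2 above the median signal, 2 over clusters with 1 symbol, 0 with the mean of a gene's clusters, and 0 to 2 without single samples. Of all genes, 322 fell and 455 rose. These counts were 153 and 174 with a replicate block, 466 and 717 with trend and robust, and 548 and 773 above the median signal. Without single samples they were 33 to 745 and 88 to 679, with the highest counts without titled 23 Pa CSS replicate 3 and the fewest falls without titled no CSS replicate 2.

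The replicate numbers share no named source. Deviations of same-numbered samples correlated at −0.08 to −0.02, and those of differently numbered samples at −0.04 to 0.10. With 4 samples a group, these values cannot tell whether same-numbered samples have a common source. With the replicate block 5 members passed: RIF1, BRIP1, MRE11, RAD50 and RAD54B. The cause of these changes was not tested. Contradictory labels, 1 cell line, 4 samples a group and the agar cushion present only with the discs limit all values.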
